A study of Rattus norvegicus with 8 samples.

Results

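The genes described here are members of the BCL2 family, which sets whether a cell enters apoptosis through its mitochondria, together with *Xiap*, an inhibitor of caspases. They were chosen by their names, as the probe sets whose gene symbol was *Bcl2*, *Bcl2l1*, *Mcl1*, *Bax*, *Bad*, *Bid*, *Bmf*, *Bcl2l11* or *Xiap*. Of these 9 genes, 8 were found among the 13915 probe sets that carry a gene symbol. The symbol column gives every symbol to 1 probe set only, and no further probe set of these genes was compared. *Bax* was not analysed here. No caspase is among the 8 genes, and the caspases are described with the other genes of the pathway.

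Ovarian granulosa cells (GCs) were isolated from 24-day-old female Sprague-Dawley rats, and mRNA was measured on 8 Affymetrix rat genome arrays 24 hr. after treatment. Control cultures were transduced with a virus that carries EGFP, a fluorescent protein with no enzymatic role (n = 2). FSH cultures received the same virus and 100 ng/ml of human FSH for 24 hr. (n = 3). PKA-CQR cultures received instead a lentivirus for a mutant catalytic subunit of protein kinase A (PKA) that stays active without cAMP (n = 3). All cultures also contained testosterone, so that the control is a culture with virus and testosterone and not an untreated cell. The labels call the arrays biological replicates, and the methods describe separate groups of GCs. The comparison of FSH with EGFP asks what the hormone changed, and that of PKA-CQR with EGFP what active PKA alone changed. That of PKA-CQR with FSH asks where the stimuli differed. The paper states that PKA-CQR activity builds up as the virus is expressed, whereas the signal of FSH is rapid and transient. The 24 hr. are therefore not equal times of PKA activity.

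BCL2, BCL2L1 (BCL-XL) and MCL1 hold the outer membrane of the mitochondrion intact. BH3-only proteins such as BAD, BIM (*Bcl2l11*), BMF and BID bind them or act on the pore-forming proteins BAX and BAK, after which cytochrome c leaves the mitochondrion, APAF1 assembles the apoptosome and caspases cut the cell's proteins. GCs of follicles that do not receive enough FSH die by apoptosis in follicular atresia, and FSH is known as a survival signal for these cells. Much of the control of this family lies in phosphorylation and protein turnover, which arrays do not measure. The signals below are mRNA signals on a log2 scale.

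Between FSH and EGFP cultures, 3 of the 8 genes passed the test, at an adjusted p under 0.05 from limma over all named genes. Of all 13915 genes, 25.5% passed it in that comparison. *Bad* and *Bcl2l11* rose with FSH and *Bmf* fell, and all 3 encode BH3-only proteins. The 250 bases before the start of each of these genes are shown because they are the genes that passed the test. They come from the RefSeq promoter table of build GRCr8, and each is printed 5′ to 3′ on the gene's own strand. In *Bad* (chr1:213562864-213563113, plus strand) and *Bcl2l11* (chr3:135819792-135820041, plus strand) the capitals mark TGTTTAC or its reverse complement GTAAACA, letters that forkhead factors such as FOXO1 are known to bind. In *Bmf* (chr3:125974065-125974314, minus strand) they mark TGACG, the core of the site of the cAMP responsive factor CREB.
Bad: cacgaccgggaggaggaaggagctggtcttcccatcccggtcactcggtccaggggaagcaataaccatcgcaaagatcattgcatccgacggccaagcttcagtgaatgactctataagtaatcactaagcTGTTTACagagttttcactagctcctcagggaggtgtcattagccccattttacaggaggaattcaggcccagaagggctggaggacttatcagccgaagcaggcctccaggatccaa
Bcl2l11: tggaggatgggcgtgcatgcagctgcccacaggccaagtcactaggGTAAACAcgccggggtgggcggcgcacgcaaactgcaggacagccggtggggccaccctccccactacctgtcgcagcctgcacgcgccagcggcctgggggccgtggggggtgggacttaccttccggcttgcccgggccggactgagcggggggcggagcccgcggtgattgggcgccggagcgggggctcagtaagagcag
Bmf: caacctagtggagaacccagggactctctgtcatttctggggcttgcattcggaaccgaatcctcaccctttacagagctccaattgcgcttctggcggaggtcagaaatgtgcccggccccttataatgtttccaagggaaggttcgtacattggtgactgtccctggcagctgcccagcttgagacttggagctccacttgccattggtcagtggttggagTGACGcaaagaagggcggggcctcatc
Among the 8 genes, 7 have an entry in that table. On either strand of the whole window of 300 bases, TGTTTAC was found in 2 of the 7, *Bad* at 118 bases and *Bcl2l11* at 204 bases before the start, and in 3.78% of all 33469 windows. TGACG was found in *Bmf* at 27 bases and in *Mcl1* at 55 bases before the start, and in 21.2% of all windows. The full palindrome TGACGTCA was in none of the 7 and in 1.83% of all windows. The shorter forkhead letters AAACA, which overlap TGTTTAC as TGTTT on the other strand, were in 5 of the 7 and in 51.9% of all windows. These matches are letters in a window, and binding of a factor was not measured.

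*Bad*, whose protein is held inactive in the cytosol when survival kinases phosphorylate it, had log2 signals of 10.69 and 10.76 in the EGFP arrays, of 11.06, 11.05 and 11.24 in the FSH arrays and of 10.86, 10.76 and 10.90 in the PKA-CQR arrays. Every FSH array lay above every other array. The rise with FSH was 0.39 on the log2 scale (SE 0.09, 95% interval 0.19 to 0.58, 1.31-fold, adjusted p = 0.0106 by limma). Without EGFP replicate 1 the rise was 0.36 and no longer passed the test (adjusted p = 0.0765). With PKA-CQR the difference from EGFP was 0.11 (interval -0.08 to 0.31, adjusted p = 0.507), and the lowest PKA-CQR array lay at the level of the higher EGFP array.

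*Bcl2l11*, which encodes BIM, a BH3-only protein that binds all the protective members, had log2 signals of 6.20 and 6.25 with EGFP, of 6.45, 6.51 and 6.58 with FSH and of 6.47, 6.36 and 6.35 with PKA-CQR. All 6 stimulated arrays lay above both EGFP arrays, and FSH and PKA-CQR arrays overlapped. The rise with FSH was 0.29 (SE 0.08, interval 0.12 to 0.46, 1.22-fold, adjusted p = 0.023). It lost its call without any of 4 arrays, namely EGFP replicate 1 (adjusted p = 0.123), EGFP replicate 2 (0.0698), FSH replicate 2 (0.063) or FSH replicate 3 (0.0549), with the rise between 0.26 and 0.31 each time. With PKA-CQR the difference was 0.17 (interval -0.01 to 0.34, adjusted p = 0.224), and it did not pass the test.

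*Bmf*, which encodes a BH3-only protein tethered to the cytoskeleton by a dynein light chain, had log2 signals of 5.80 and 6.16 with EGFP, of 5.75, 5.55 and 5.45 with FSH and of 5.62, 5.66 and 5.63 with PKA-CQR. Every stimulated array lay below both EGFP arrays, and the EGFP arrays differed from each other by more than the FSH arrays did. The log2 signal fell by 0.40 with FSH (SE 0.12, interval -0.68 to -0.12, 1.32-fold lower, adjusted p = 0.0435). This call rested on the higher EGFP array, since without EGFP replicate 2 the difference was -0.22 (adjusted p = 0.277). It was also lost without FSH replicate 2 (adjusted p = 0.11), FSH replicate 3 (0.103) or PKA-CQR replicate 1, 2 or 3 (0.0695, 0.0677 and 0.066). With the replicate number as a block the difference was -0.36 (adjusted p = 0.0844). With PKA-CQR the difference from EGFP was -0.35 (interval -0.62 to -0.07, adjusted p = 0.116), and it passed the test without EGFP replicate 1 only (-0.53, adjusted p = 0.0496) among the fits with an array left out. The mean signal of *Bmf*, as those of *Bcl2* and *Xiap*, was low (under 6.17, the bound of a filter on dim probe sets), where a fold change on RMA signals is compressed. The mean signal of *Bcl2l11* (6.4) lay not far above this bound.

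*Bid*, whose protein is cut by caspase 8 and then carries the death receptor signal to the mitochondrion, had log2 signals of 8.27 and 8.03 with EGFP, of 7.90, 7.91 and 7.83 with FSH and of 7.94, 7.92 and 7.81 with PKA-CQR. All 6 stimulated arrays lay below both EGFP arrays. The difference was -0.27 with FSH (SE 0.09, interval -0.47 to -0.06, adjusted p = 0.0623) and -0.26 with PKA-CQR (interval -0.46 to -0.05, adjusted p = 0.111). Neither passed the test. The FSH difference passed it without EGFP replicate 2 (-0.38, adjusted p = 0.0294) and stood at -0.15 without EGFP replicate 1 (adjusted p = 0.387), so that its size followed which of the EGFP arrays was kept. It also passed in 4 of 12 other alternatives, namely a second quantile normalization (adjusted p = 0.037), median centring (0.0449), the replicate number as a random block (0.0481) and a block with EGFP replicate 2 placed with replicate 3 (0.0237).

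**Figure D1:**
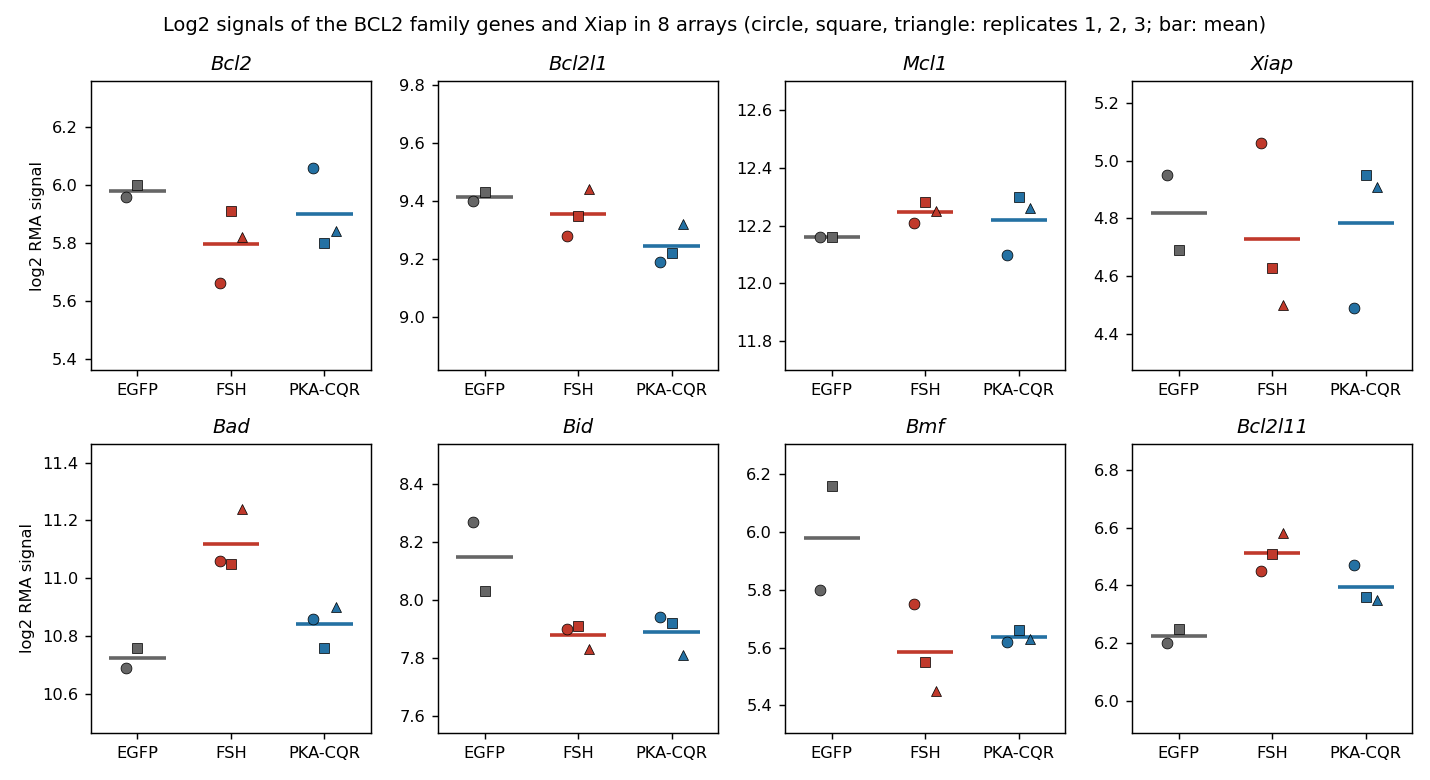
Log2 RMA signal (vertical axis, 1 log2 unit in every panel) of the 8 genes in EGFP, FSH and PKA-CQR cultures, with 1 point per array, replicates as circles, squares and triangles, and bars for group means. Every FSH array of *Bad* (11.05 to 11.24) sits above the other arrays, while the groups of *Xiap* (4.49 to 5.06) overlap.

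The genes that protect the mitochondrion did not pass the test in any comparison. *Bcl2* had log2 signals of 5.96 and 6.0 with EGFP, of 5.66, 5.91 and 5.82 with FSH and of 6.06, 5.80 and 5.84 with PKA-CQR. The FSH arrays lay below the EGFP arrays, and the PKA-CQR arrays lay on both sides of them. The difference was -0.19 with FSH (interval -0.42 to 0.05, adjusted p = 0.248) and -0.08 with PKA-CQR (interval -0.32 to 0.16, adjusted p = 0.727). *Bcl2l1*, which encodes BCL-XL, had log2 signals of 9.40 and 9.43 with EGFP, of 9.28, 9.35 and 9.44 with FSH and of 9.19, 9.22 and 9.32 with PKA-CQR. All PKA-CQR arrays lay below both EGFP arrays, whereas FSH arrays lay on both sides. The difference was -0.06 with FSH (interval -0.24 to 0.12, adjusted p = 0.641) and -0.17 with PKA-CQR (interval -0.35 to 0, adjusted p = 0.22).

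*Mcl1* encodes a protective protein with a short life in the cell. Its log2 signals were 12.16 and 12.16 with EGFP, 12.21, 12.28 and 12.25 with FSH and 12.10, 12.30 and 12.26 with PKA-CQR. They spanned 0.20 over the 8 arrays, the narrowest range of the 8 genes. The difference from EGFP was 0.09 with FSH (interval -0.10 to 0.27, adjusted p = 0.491) and 0.06 with PKA-CQR (interval -0.12 to 0.25, adjusted p = 0.727), with intervals that reach no farther than 0.27 from 0. *Xiap*, whose protein binds caspases directly and blocks them, had log2 signals of 4.95 and 4.69 with EGFP, of 5.06, 4.63 and 4.50 with FSH and of 4.49, 4.95 and 4.91 with PKA-CQR. Its groups overlapped in every comparison. Its differences were -0.09 with FSH (interval -0.53 to 0.35, adjusted p = 0.781) and -0.04 with PKA-CQR (interval -0.48 to 0.40, adjusted p = 0.944). The spread within a group was 0.26 (SD) for *Xiap*, against a median of 0.11 over all named genes, so its intervals were the widest of the 8 genes.

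Counted together, 2 of the 8 genes rose with FSH, 1 fell and 5 did not pass the test (37.5% called against 25.5% of all genes, of which 13.4% were higher and 12.1% lower). The direction differed among them, with a median log2 fold change of -0.08 against 0.06 over all genes. FSH and EGFP arrays did not overlap for 6 of the 8 genes, as for 49.2% of all genes. With PKA-CQR 0 of the 8 genes passed the limma test, against 12.5% of all genes (6.48% higher and 6.02% lower). At an unadjusted p under 0.05 there were 2, *Bid* and *Bmf*, and the methods' t-test passed 0 of the 8. PKA-CQR and EGFP arrays did not overlap for 5 of the 8 genes, as for 40.6% of all genes. Changes were small throughout. The largest, that of *Bmf*, was 1.32-fold after FSH and 1.27-fold after PKA-CQR. None of the 8 genes changed by 2-fold or more, as did 6.1% of all genes with FSH and 2.72% with PKA-CQR, and the bound farthest from 0 of any of their 95% intervals was a log2 difference of 0.68 in size (1.6-fold, *Bmf* with FSH). Because the FSH and PKA-CQR comparisons use the same 2 EGFP arrays, the values of a gene in the pair of comparisons are not independent of each other.

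**Figure D2:**
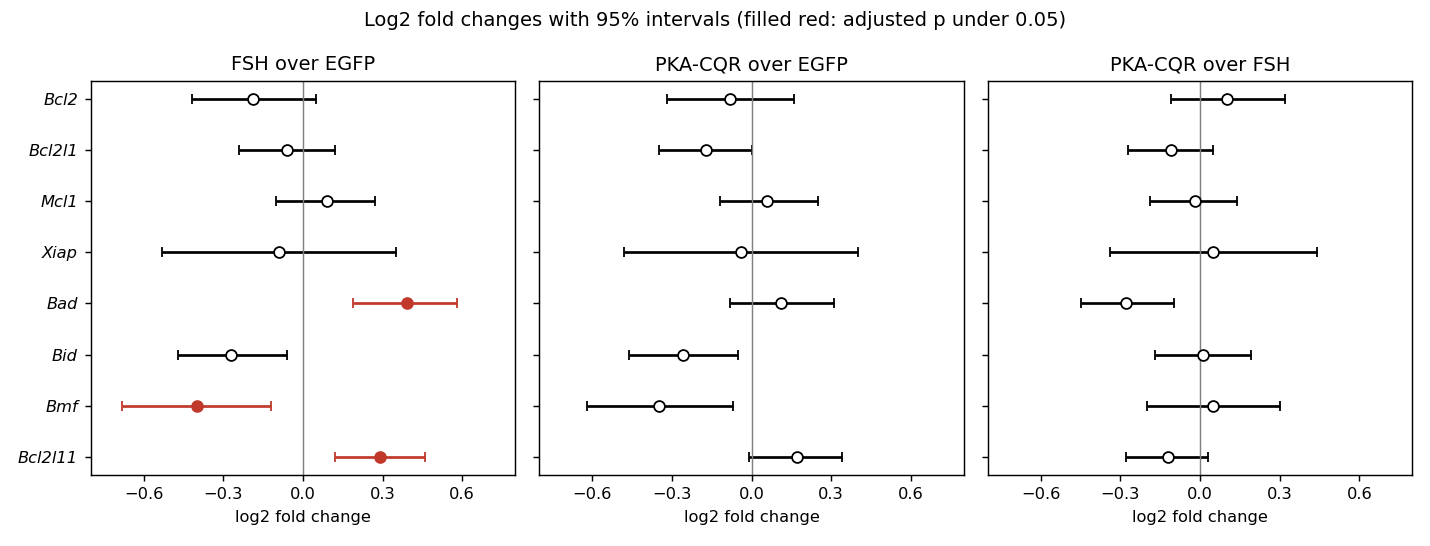
Log2 fold change (horizontal axis) of the 8 genes in the 3 comparisons, with 95% intervals from limma as horizontal bars and filled red points for an adjusted p under 0.05. Filled points appear for *Bad* (0.39), *Bcl2l11* (0.29) and *Bmf* (-0.40) with FSH and for no gene in the other panels.

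Set directly against FSH, PKA-CQR left 0 of the 8 genes past the limma test, against 6.91% of all genes (3.95% higher and 2.96% lower), and 1 at an unadjusted p under 0.05. This was *Bad*, which was lower with PKA-CQR than with FSH by a log2 difference of -0.28 (SE 0.08, interval -0.45 to -0.10, 1.21-fold, adjusted p = 0.0772). All 3 PKA-CQR arrays lay below all 3 FSH arrays, the only such case among the 8 genes, and 22.8% of all genes showed no overlap in this comparison. With the replicate number as a block, a pairing that the arrays of these stimuli bear out, the same difference passed the test (adjusted p = 0.048). It also passed with the block taken as random (0.042), with array weights (-0.23, 0.0332) and with the signal difference of the beta-actin probe sets as a covariate (-0.26, 0.0233). The other 7 genes differed by -0.12 to 0.10 between the stimuli. For *Bid* the interval of the difference was -0.17 to 0.19, for *Bmf* -0.20 to 0.30, for *Bcl2l11* -0.28 to 0.03, for *Bcl2l1* -0.27 to 0.05, for *Bcl2* -0.11 to 0.32, for *Mcl1* -0.19 to 0.14 and for *Xiap* -0.34 to 0.44. These intervals bound the differences and do not show that the stimuli acted alike.

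**Figure D3:**
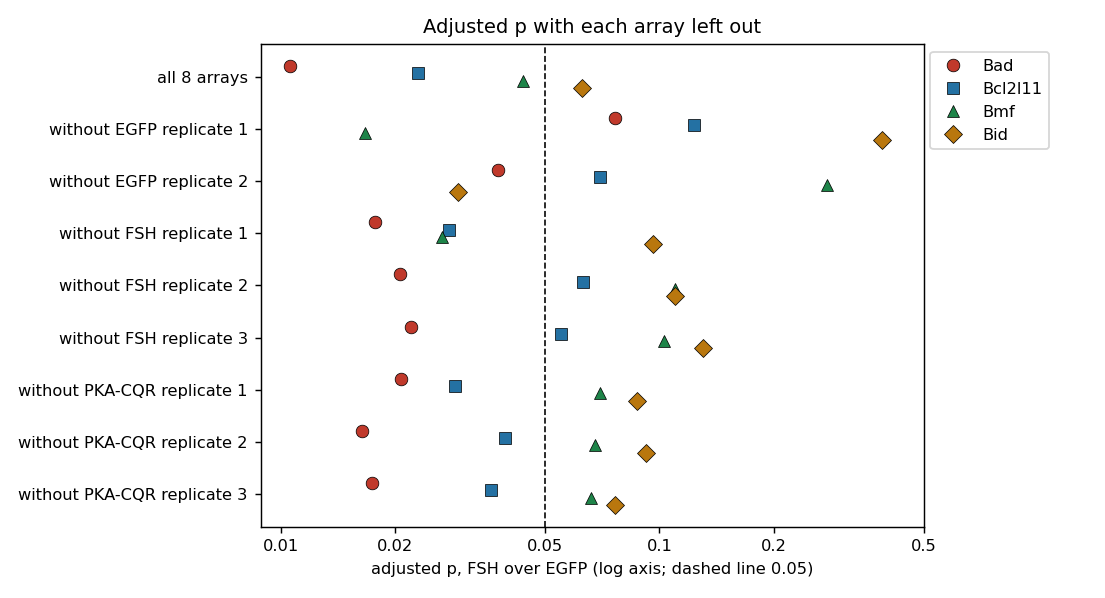
Adjusted p of the FSH over EGFP difference (horizontal log axis, dashed line at 0.05) for *Bad*, *Bcl2l11*, *Bmf* and *Bid*, with all 8 arrays and with each array left out (vertical axis, points of a fit offset for clarity). *Bad* crosses the line only without EGFP replicate 1 (0.0765), *Bcl2l11* and *Bmf* cross it in several fits, and *Bid* lies below it only without EGFP replicate 2 (0.0294).

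The beta-actin probe sets, whose 3′ minus 5′ difference rises when RNA or cRNA is shorter, also differed between arrays of a group. That difference was 1.02 and 1.53 in EGFP replicates 1 and 2, 1.30, 1.45 and 1.88 with FSH and 1.45, 1.34 and 1.66 with PKA-CQR. With it as a covariate, *Bad* and *Bcl2l11* passed the FSH test and *Bmf* did not, with a difference about as large (-0.41, adjusted p = 0.0537). Of 9 measured granulosa cell markers, 5 rose with each stimulus (among them *Inha*, the alpha subunit of inhibin). Of all genes, 13.4% passed the test as higher with FSH and 6.48% with PKA-CQR. The paper lists *Inha* as raised by both stimuli, so such a rise does not check the identity of the cells. The summed linear signals of the 9 markers were 42981 to 46835 with EGFP, 55693 to 64490 with FSH and 60282 to 64081 with PKA-CQR. The sum over 5 theca and stroma markers was 1278 to 1987, 551 to 714 and 817 to 1235 in the same order. In that list *Dcn* (-2.20) and *Pdgfra* (-0.61) fell with FSH, whereas *Cyp17a1*, the androgen-forming enzyme of theca cells, rose with FSH (0.94, adjusted p = 0.0024) and with PKA-CQR (0.79, adjusted p = 0.0112). The sum over 6 macrophage and leukocyte markers was 3102 to 3283, 1964 to 2051 and 2740 to 3055. Among the latter *Cd14* fell with FSH while *Cd68* and *Cd74* rose. The sum over 4 endothelial markers was 237 to 241 with EGFP, 175 to 206 with FSH and 209 to 236 with PKA-CQR, and *Kdr* fell with FSH. The sum over 4 oocyte markers was 702 to 832, 501 to 729 and 685 to 1118, and *Zp2* fell with FSH. The erythroid marker *Alas2* rose with FSH, with linear signals of 103 to 107, 150 to 206 and 125 to 127. Mean signals were under 6.17 for 3 of the 4 endothelial, 2 of the 4 oocyte and 2 of the 6 macrophage and leukocyte markers. The same held for 1 of the 9 granulosa cell markers and 1 of the 5 theca and stroma markers. A sum of linear signals mostly follows its brightest probe sets. The part of these values in the results was not tested. In such bulk cultures fewer cells of a type and less RNA per cell cannot be told apart.

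The remaining genes of the pathway were taken in 6 lists with 77 symbols, of which 66 were measured. With FSH 4 of the 66 rose and 10 fell (21.2% called), and with PKA-CQR 2 rose and 5 fell (10.6%), shares near those of all genes. The numbers moved with single arrays and with the block, from 4 and 10 to 6 and 5 with FSH without EGFP replicate 1, to 7 and 11 with FSH under the replicate block, and for PKA-CQR from 2 and 5 to 4 and 2 without EGFP replicate 1, to 2 and 2 without PKA-CQR replicate 2 and to 4 and 8 under the block. None of the 12 other BCL2 family genes measured passed the limma test in any comparison, and at an unadjusted p under 0.05 there were 0 with FSH, 2 with PKA-CQR and 1 between the stimuli. With the replicate block 1 of the 12 rose with PKA-CQR. Among them were *Bok*, a pore-forming member (0.14 with FSH, adjusted p = 0.319), *Bak1*, the partner of *Bax* (0.09, adjusted p = 0.805), and *Bbc3*, which encodes the p53 target PUMA (-0.21, adjusted p = 0.198).

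Of 9 caspases measured, 1 rose and 1 fell with FSH, where 25.5% of all genes passed the test, and with PKA-CQR 0 passed the limma test and 2 (*Casp6* and *Casp12*) had an unadjusted p under 0.05. *Casp9*, the caspase of the apoptosome, had log2 signals of 8.25 and 8.33 with EGFP, of 8.51, 8.62 and 8.69 with FSH and of 8.28, 8.33 and 8.49 with PKA-CQR. It rose 1.25-fold with FSH (adjusted p = 0.0317) and differed by 0.08 with PKA-CQR (adjusted p = 0.696). *Casp12*, a caspase of the endoplasmic reticulum, was 1.49-fold lower with FSH (adjusted p = 0.0466). Each of these calls was lost in 5 of the 8 fits with an array left out. For *Casp9* these were the fits without EGFP replicate 1 or 2, FSH replicate 2 or 3 or PKA-CQR replicate 2, with an adjusted p of up to 0.17. For *Casp12* they were the fits without EGFP replicate 1, FSH replicate 1 or 3 or PKA-CQR replicate 2 or 3, with an adjusted p of up to 0.313 (-0.35 without EGFP replicate 1 against -0.57 with all arrays), and the replicate block ended that call too (adjusted p = 0.0979). A block with EGFP replicate 2 placed with replicate 3 kept the FSH call of *Casp12*. In that block *Casp12* passed the test with PKA-CQR too (adjusted p = 0.0332). *Casp6* (-0.20 with FSH, adjusted p = 0.113) and *Casp8*, the initiator caspase of death receptors (0.23, adjusted p = 0.217), did not pass the test.

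Larger falls were seen among the partners of *Xiap*. Of 7 inhibitor of apoptosis (IAP) genes and IAP antagonists measured, 3 fell with FSH and 0 rose, against 12.1% and 13.4% of all genes. *Sept4*, of which one product, ARTS, is known to bind XIAP, had log2 signals of 8.58 and 8.09 with EGFP, of 5.81, 5.90 and 6.05 with FSH and of 7.15, 7.02 and 7.39 with PKA-CQR. The 3 groups did not overlap. *Sept4* fell by 2.42 on the log2 scale with FSH (SE 0.16, 5.34-fold lower, adjusted p = 1.64e-05) and by 1.15 with PKA-CQR (2.22-fold lower, adjusted p = 0.00229), and the difference between the stimuli passed the test (1.27, adjusted p = 0.00149). The array does not show which product of the gene was measured.

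*Htra2*, a mitochondrial protease that releases caspases from XIAP, had log2 signals of 10.92 and 10.96 with EGFP, of 9.49, 9.58 and 9.77 with FSH and of 10.05, 9.91 and 10.19 with PKA-CQR. It was 2.51-fold lower with FSH (adjusted p = 4.91e-05) and 1.86-fold lower with PKA-CQR (adjusted p = 0.00119). The log2 difference between the stimuli (0.43 higher with PKA-CQR, adjusted p = 0.0353) lost its call in 6 of the 8 fits with an array left out, all but those without FSH replicate 3 or PKA-CQR replicate 2 (adjusted p up to 0.125). The third was *Birc2*, which encodes cIAP1, an IAP of the TNF receptor complex, with log2 signals of 10.96 and 10.29 with EGFP and 10.0, 10.07 and 9.66 with FSH (-0.72, adjusted p = 0.0259). It did not pass with EGFP replicate 1 left out (-0.38, adjusted p = 0.182) or with FSH replicate 3 left out (-0.59, adjusted p = 0.0614). *Diablo*, the other mitochondrial IAP antagonist, stood at 0.28 with FSH (adjusted p = 0.0526).

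Among 9 apoptosome and execution genes, *Apaf1*, the scaffold on which caspase 9 is activated, had log2 signals of 9.99 and 9.95 with EGFP, of 9.63, 9.64 and 9.59 with FSH and of 9.70, 9.66 and 9.66 with PKA-CQR. It was 1.27-fold lower with FSH (adjusted p = 0.0047) and 1.23-fold lower with PKA-CQR (adjusted p = 0.0191), the latter lost without EGFP replicate 1 or 2 or PKA-CQR replicate 2 or 3 (adjusted p up to 0.125). *Dffa*, the inhibitor of the caspase-activated DNase, was 1.21-fold lower with FSH (adjusted p = 0.0299), a call lost without EGFP replicate 1 or 2 or FSH replicate 1 or 2 (adjusted p up to 0.134). Among 8 death receptor genes, *Fas* had log2 signals of 8.75 and 8.09 with EGFP, of 7.70, 7.56 and 7.83 with FSH and of 7.57, 7.55 and 7.75 with PKA-CQR. It fell 1.65-fold with FSH (adjusted p = 0.0169) and 1.74-fold with PKA-CQR (adjusted p = 0.0198). The EGFP arrays of *Fas* were themselves far apart. Its FSH call was lost without EGFP replicate 1 (-0.39 against -0.72, adjusted p = 0.0905) or FSH replicate 2, and its PKA-CQR call without EGFP replicate 1 (-0.46 against -0.80, adjusted p = 0.0953) or PKA-CQR replicate 1 or 2. Without EGFP replicate 2 the differences were -1.05 and -1.13. *Ripk1*, a kinase of the death receptor complex, was 1.24-fold lower with FSH (adjusted p = 0.0433) and was called in only 2 of the 8 fits with an array left out, those without EGFP replicate 2 or FSH replicate 2 (adjusted p up to 0.285 in the others, with -0.20 without EGFP replicate 1 against -0.31 with all arrays). The replicate block ended that call too (adjusted p = 0.0742), but a block with EGFP replicate 2 placed with replicate 3 kept it.

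**Figure D4:**
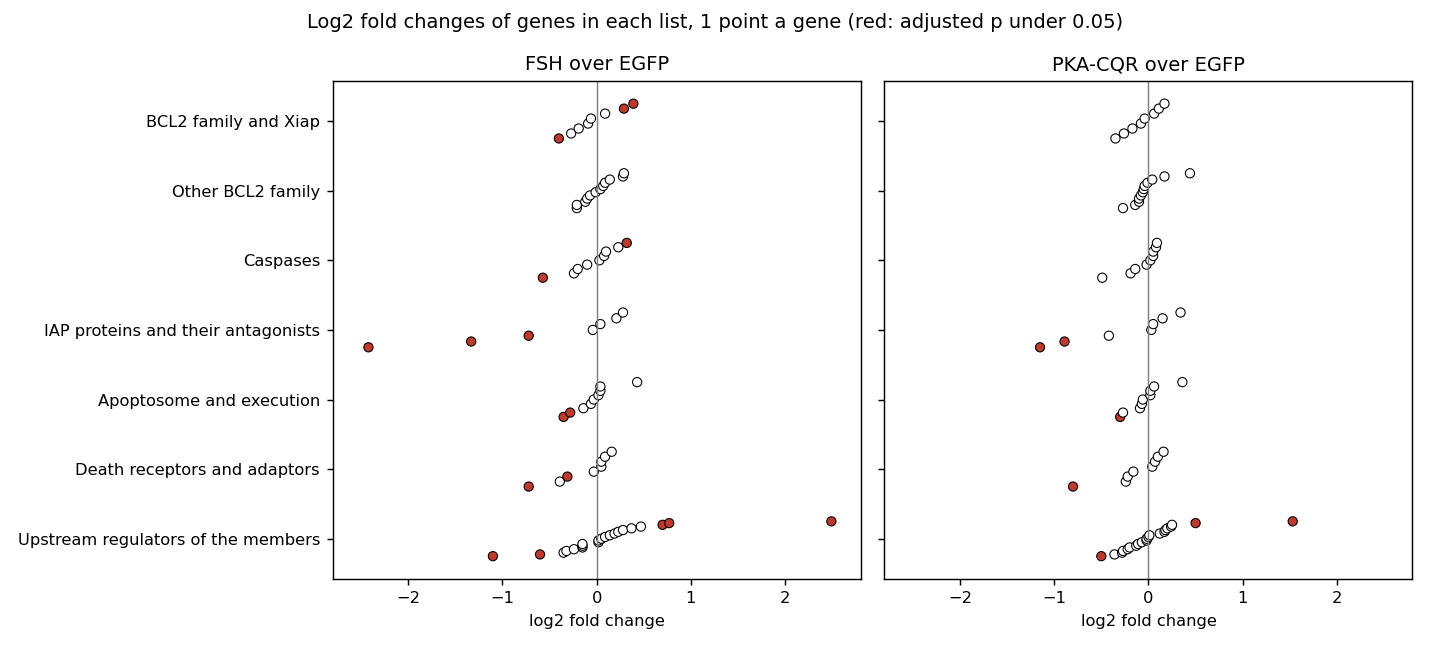
Log2 fold change (horizontal axis) of each measured gene in the 8 genes and the 6 other lists, for FSH over EGFP and PKA-CQR over EGFP, with 1 point per gene and red for an adjusted p under 0.05. The BCL2 family genes lie close to 0, whereas *Sept4* (-2.42) and *Sgk1* (2.49) mark the ends of the FSH panel.

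Of 21 genes for kinases, transcription factors, binding proteins and other regulators of the 8 genes or their proteins, 3 rose and 2 fell with FSH, close to the 25.5% of all genes that passed. *Foxo1*, a forkhead factor known to activate *Bcl2l11*, had log2 signals of 12.85 and 12.89 with EGFP, of 11.97, 11.73 and 11.61 with FSH and of 12.44, 12.27 and 12.40 with PKA-CQR. It was 2.14-fold lower with FSH (adjusted p = 0.000142) and 1.41-fold lower with PKA-CQR (adjusted p = 0.019), and the stimuli differed by 0.60 (adjusted p = 0.00823). The PKA-CQR call was lost without EGFP replicate 1 or 2 or PKA-CQR replicate 2 (adjusted p up to 0.0949). *Foxo3* stood at 0.02 with FSH (adjusted p = 0.942). Its mean log2 signal was low (4.7), where a fold change on RMA signals is compressed. The value therefore does not show that *Foxo3* was unchanged.

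*Dynll2*, the dynein light chain that holds BMF at the cytoskeleton, had log2 signals of 10.86 and 10.87 with EGFP, of 11.62, 11.74 and 11.54 with FSH and of 11.30, 11.46 and 11.35 with PKA-CQR. It rose 1.71-fold with FSH (adjusted p = 0.000254) and 1.42-fold with PKA-CQR (adjusted p = 0.00574). *Akt2*, a kinase of the family that phosphorylates BAD, rose 1.62-fold with FSH (adjusted p = 0.00268) and stood at 0.20 with PKA-CQR (adjusted p = 0.358). The difference between the stimuli (-0.49, adjusted p = 0.0273) was lost without FSH replicate 2 or 3 or PKA-CQR replicate 1 or 2 (adjusted p up to 0.106). *Sgk1*, a kinase that phosphorylates forkhead factors, rose with PKA-CQR 2.89-fold (adjusted p = 0.000446), with log2 signals of 10.48 and 10.97 with EGFP and 12.12, 12.20 and 12.44 with PKA-CQR, and was lower there than with FSH by a log2 difference of -0.96 (adjusted p = 0.00422). *Pim3*, a further kinase that phosphorylates BAD, was 1.51-fold lower with FSH (adjusted p = 0.00156).

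*Bmf* had the largest change of the 8 genes, and the genes most like it over the 8 arrays were *Cep70* (Pearson's r = 0.969), *Slc29a1* (0.964), *Postn* (0.962), *Araf* (0.957) and *LOC64038* (0.954). They are given as a description, over arrays that share groups and controls, and are the highest of 13827 genes compared. The mean log2 signals of *Postn* (4.08) and of *Bmf* itself (5.7) were low. Of them *Cep70* stood at -0.30 with FSH and -0.20 with PKA-CQR on the log2 scale, against -0.40 and -0.35 for *Bmf*.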

How the data were processed

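Total RNA of 8 GC cultures was measured on Affymetrix rat genome arrays. The deposited values are log2 signals from the authors' RMA, a method that corrects background, quantile normalises across arrays and summarises the probes of a set. The RMA version and chip definition were not given in the sources used here, and the MAS5.0 values that the methods also name were not used. The complete table held 31099 probe sets, with 57 controls and 13915 that carry a symbol. The platform annotation gave the same single symbol for 8 of the 8 genes. Array medians ran from 8.37 to 8.44 and arrays of a group correlated at 0.993 to 0.997. The number of arrays limits the precision.

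Signals were tested with limma 3.58.1 in R 4.3.3 (lmFit and eBayes over all 8 arrays, so that EGFP with 2 arrays shares the spread of the other groups), with Benjamini-Hochberg adjustment over 13915 genes and calls at an adjusted p under 0.05. A fold change is a difference of group means of log2 signals. The script was tested on simulated data with planted changes larger than any of the 8 genes showed (up to 1.32-fold). That test does not cover changes of their size. Genes named beyond the 8 were, in each list and comparison, the 2 called genes that rose most and the 2 that fell most, the 5 genes most like the gene with the largest change, and cell type markers. *Birc2*, *Diablo*, *Foxo3* and the uncalled genes of the lists are not covered by this rule and were picked with their values in view. The members and lists were chosen with earlier results of these data known. Same-numbered FSH and PKA-CQR arrays deviated together from their group means (correlations 0.23, 0.44 and 0.62). With the same-numbered FSH and PKA-CQR arrays, EGFP replicate 1 correlated at 0.42 and 0.13 and EGFP replicate 2 at -0.27 and -0.32. The deviations of the 2 EGFP arrays from their mean are equal and opposite. The values of the 2 EGFP arrays are therefore not separate evidence. The negative values of EGFP replicate 2 do not bear out a pairing by its number. By the numbers in the array names, EGFP replicate 2 comes just before FSH replicate 3, as EGFP replicate 1 does before FSH replicate 1. The legend of the paper's expression figure, however, takes its controls from groups 1 and 2. The pairing of EGFP replicate 2 was thus not settled. The methods describe 3 separate groups of GCs, so the replicate number was also fitted as a block. A further block placed EGFP replicate 2 with replicate 3. Other alternatives were 2 further scalings, filters on dim probe sets, all 31042 non-control probe sets, other variance models, array weights, 2 groups only, each array left out and the methods' t-test. A beta-actin covariate was added after the data were seen. Promoters were read from RefSeq (GRCr8).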

Additional observations from a re-analysis of the deposited data

How the results depend on the processing

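Under the alternatives to the FSH comparison, the 3 calls became 1 with only probe sets at or above the median signal (which leaves *Bcl2l1*, *Mcl1* and *Bad* to be tested), 1 with only the arrays of the 2 groups compared, and 0 with the methods' t-test at their threshold or after Benjamini-Hochberg adjustment. They became 4, with *Bid* added, under the second quantile normalization and the random block. *Bid* also passed with median centring and with a block that moves EGFP replicate 2 to replicate 3, where *Bmf* was lost. With an array left out, 1 to 3 genes were called, and the 1 came without EGFP replicate 1, FSH replicate 2 or FSH replicate 3. The count of 0 for PKA-CQR over EGFP became 1 (*Bid*) with a replicate block that places EGFP replicate 2 with replicate 3, and ran from 0 to 1 with an array left out. The count of 0 for PKA-CQR over FSH became 1 (*Bad*) with array weights, the replicate block, the random block, the moved block and the beta-actin covariate, and stayed 0 with any array left out. *Bad* kept its FSH call in all 13 other alternatives apart from the methods' t-test (adjusted p = 0.0038 to 0.0337), *Bcl2l11* in 11 of 12 and *Bmf* in 5 of 11. The replicate block changed no call of the 8 genes other than those of *Bad* between the stimuli and *Bmf* with FSH. For the genes named from the lists, it ended the FSH calls of *Casp12* and *Ripk1* and moved *Pim3* past the threshold in PKA-CQR over EGFP (adjusted p = 0.0269) and over FSH (0.0226) and *Dffa* in PKA-CQR over EGFP (0.0426). With EGFP replicate 2 placed with replicate 3, the FSH calls of *Casp12* and *Ripk1* held. In PKA-CQR over EGFP that block moved *Casp12* (limma adjusted p = 0.0332), *Ripk1* (0.0417) and *Birc2* (0.0359) past the threshold.

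Differences near 0 that passed no test turned their sign. With the beta-actin covariate *Xiap* stood at 0.06 with FSH and 0.08 with PKA-CQR. For PKA-CQR over FSH, *Bid* stood at -0.01 after a second quantile normalization, with array weights or with the covariate, and at 0 with median centring. *Dffa* stood at 0, -0.01 and -0.02 with the second normalization, centring and weights, and with weights *Casp12* stood at -0.07, *Fas* at 0.01 and *Ripk1* at 0. With an array left out, *Xiap* ran from -0.26 to 0.04 with FSH, -0.17 to 0.11 with PKA-CQR and -0.06 to 0.22 between the stimuli, where *Bid* ran from -0.02 to 0.05, *Mcl1* from -0.06 to 0.04, *Bmf* from -0.01 to 0.13, *Casp12* from -0.03 to 0.20 and *Dffa* from -0.04 to 0.03. Without EGFP replicate 1, 16.3% of all genes passed for FSH over EGFP and 6.12% for PKA-CQR over EGFP, and the methods' t-test passed 5.73% and 0.381% after adjustment. The causes were not tested. EGFP with 2 arrays, and the low signals of *Bcl2*, *Bmf* and *Xiap*, limit what could be called.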
